A study of Mus musculus with 9 samples.

Results

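RNA-seq of mouse 4T1 cells was used to set one Yap1 hairpin against another, shYap-2 against shYap-1, gene by gene. The 6 libraries compared were 3 of cells with shYap-2 and 3 of cells with shYap-1, and 3 libraries of cells with the control hairpin shCTRL, a negative control that the labels give as WT, served only to place the levels. Genes were taken when both deposited tables listed them and FPKM (fragments per kilobase of transcript and per M mapped fragments) was at least 1 in 3 or more of the 6 hairpin libraries. This left 10608 of the 15926 genes in both tables, from 16962 in either. 4T1 is a mammary carcinoma line of BALB/c origin, and all 9 libraries come from it without any further treatment in the labels. The labels call both hairpin groups knockdowns of Yap and give no hairpin sequence, vector, clone or time. They do not say whether replicates were separate cultures, so p-values measure the spread between these libraries, which may be technical.

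Yap1 encodes YAP, a transcriptional co-activator that the Hippo kinases LATS1 and LATS2 phosphorylate and hold in the cytoplasm. In the nucleus YAP and its paralog TAZ, encoded by Wwtr1, bind TEAD factors and activate genes of growth, cytoskeleton and matrix, and the title of the series links the pathway to antigen presentation by MHC class I. A short hairpin is processed into a small RNA that guides cleavage of the matching transcript, so hairpins of different sequence share the intended target and may differ in everything else they touch. The comparison therefore addresses which differences arise between cells that carry different hairpins against the same gene.

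The libraries held an estimated 21.8 to 27.6 M fragments with shYap-2, 19.6 to 28.3 M with shYap-1 and 22.2 to 24.45 M with shCTRL. All 10 epithelial markers of 4T1 cells were at 1 FPKM or more in at least 3 hairpin libraries. Of 11 leukocyte markers with values, Cd68 alone reached that level. Of 17 markers of fibroblasts and endothelium, Acta2 and Pdgfra did. One library stood apart. In shYap-1 replicate 2 the mitochondrially encoded genes took 2.01% of the summed FPKM, against 4.23% and 3.97% in shYap-1 replicates 1 and 3 and 3.19% to 3.46% with shYap-2. Its deviation from the mean of its own group followed GC content across the 10606 annotated genes with a Spearman coefficient of 0.712. This is a description across genes that are not independent. Deviations within a group balance out, so those of shYap-1 replicates 1 and 3 partly mirror replicate 2. The coefficients were -0.647 and -0.561 in shYap-1 replicates 1 and 3 and between -0.196 and 0.0964 with shYap-2. Measured from the mean of the 6 libraries, genes in the decile of lowest GC content had a median deviation of -0.296 in shYap-1 replicate 2. Those in the decile of highest GC content had 0.193.

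**Figure D1:**
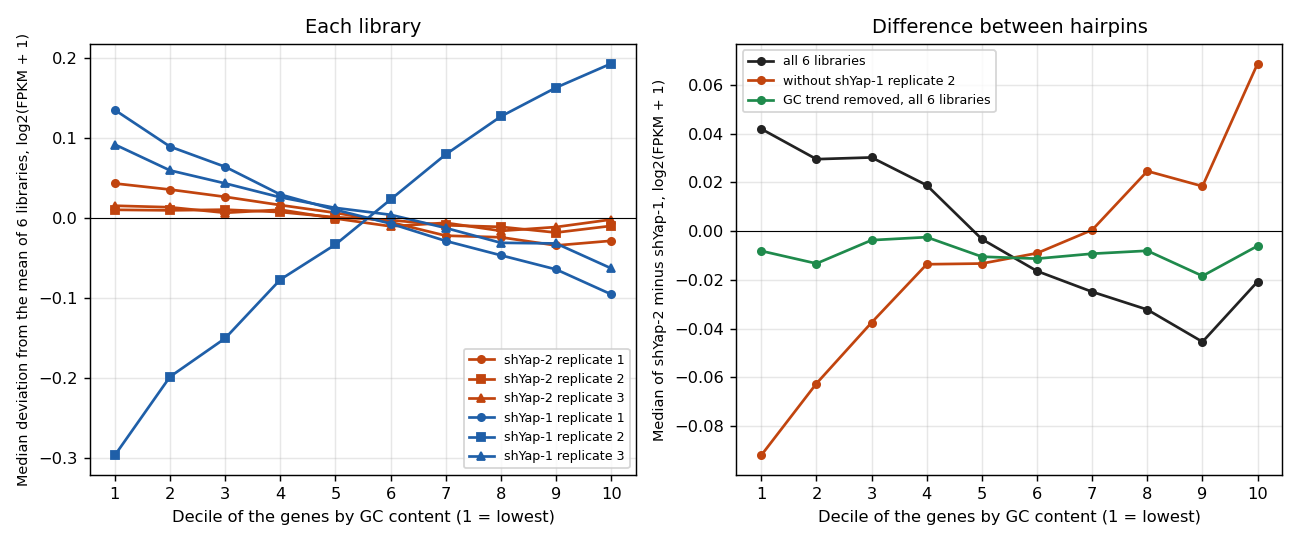
Left, the median deviation of each hairpin library from the mean of the 6 libraries, in log2(FPKM + 1), for the genes split into deciles by GC content of their longest transcript. shYap-1 replicate 2 climbs across the deciles, with -0.296 in the lowest and 0.193 in the highest, and the other 5 libraries stay nearer to 0. Right, the median difference, shYap-2 minus shYap-1, in each decile, which tilts one way with all 6 libraries, the other way without shYap-1 replicate 2 and lies near 0 once the trend is removed.

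With all 6 libraries, limma on log2(FPKM + 1) called 0 of the 10608 genes at a Benjamini-Hochberg adjusted p under 0.05. The smallest adjusted p was 0.0583, shared by 37 genes, and 1757 genes (16.6%) had an unadjusted p under 0.05, 803 of them higher with shYap-2 (7.57%) and 954 lower (8.99%). The difference between hairpins, shYap-2 minus shYap-1 in log2(FPKM + 1), had a median size of 0.0967, and only 72 genes reached 0.5. Without shYap-1 replicate 2 the median standard error was 0.0598, against 0.0899 with all 6 libraries. This fit of 5 libraries called 2271 genes (21.4%), of which 1101 were higher with shYap-2 (10.4%) and 1170 lower (11.0%). A GC-adjusted fit, which took each library's trend on GC content out and kept all 6, called 817 genes (7.7%), 384 higher (3.62%) and 433 lower (4.08%). The 775 genes (7.31%) called in the same direction by both, 374 higher (3.53%) and 401 lower (3.78%), made up 94.9% of the GC-adjusted calls and 34.1% of those of the 5-library fit. In 2761 genes (26.0%) the 3 shYap-2 values did not overlap the 3 shYap-1 values, 1306 with shYap-2 above (12.3%) and 1455 with shYap-2 below (13.7%). Calls by both fits and no overlap came together in 720 genes (6.79%), 347 higher (3.27%) and 373 lower (3.52%). Below, a gene or list is said to be called only with the fit named, since with all 6 libraries and no adjustment none was.

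The targeted gene, Yap1 (ENSMUSG00000053110, minus strand of chr9:7931999-8004596, GRCm38), was at 11.0, 10.4 and 9.79 FPKM with shYap-2, at 8.03, 9.05 and 9.23 FPKM with shYap-1 and at 49.3, 48.3 and 48.8 FPKM with shCTRL. All 3 shYap-2 values lay above all 3 shYap-1 values, and every hairpin value lay far below shCTRL. The shYap-2 mean was 21.3% of the shCTRL mean and the shYap-1 mean 18.0%. The difference between hairpins was 0.22 (95% confidence interval 0.03 to 0.42; limma adjusted p = 0.24), with adjusted p = 0.0579 in the 5-library fit, and an exact two-sided permutation test gave p = 0.1, the smallest that 3 against 3 allows. Wwtr1 was at 27.8, 27.0 and 27.0 FPKM with shYap-2, at 27.8, 28.2 and 27.4 FPKM with shYap-1 and at 32.0, 32.3 and 33.0 FPKM with shCTRL, so the hairpin groups overlapped.

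Across the 32 tested members of the Hippo pathway list, the 5-library fit called 3 higher with shYap-2 and 1 lower, against a background of 10.4% and 11.0%, and the GC-adjusted fit called none in either direction. Tead1, the DNA-binding partner of YAP, was at 23.0, 22.6 and 21.4 FPKM with shYap-2 and at 16.5, 21.0 and 18.9 FPKM with shYap-1, against 43.4, 42.6 and 41.4 FPKM with shCTRL. Sav1, the scaffold of the MST kinases, was at 16.4, 16.6 and 17.4 FPKM with shYap-2 and at 15.1, 11.8 and 14.5 FPKM with shYap-1. The third was Wwc1 and the one called lower Map4k4, a kinase upstream of LATS. Wwc1 and other genes named only to complete a short count were picked after their values were seen. Among the 16 tested members of the YAP/TAZ target signature, 8 differences were above 0 and 8 below, with a median of -0.0028 with all 6 libraries, 0.0533 without shYap-1 replicate 2 and 0.0165 with the GC trend removed. The 5-library fit called Myof higher and Crim1 lower, and the GC-adjusted fit called neither. Standard YAP targets had values without overlap and no call: Ccn2, a matricellular protein, was at 49.2, 49.0 and 47.4 FPKM with shYap-2, 49.5, 63.6 and 54.5 FPKM with shYap-1 and 148, 157 and 167 FPKM with shCTRL, and its relative Ccn1 had an adjusted p of 0.353 with all 6 libraries. Ankrd1 overlapped, at 55.6, 54.1 and 53.6 FPKM with shYap-2 and 55.9, 43.0 and 52.6 FPKM with shYap-1.

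The type I interferon response genes that were called were all lower with shYap-2 than with shYap-1. Of the 45 tested members of the type I interferon list, all had a difference below 0, the 5-library fit called 38 lower and none higher, and the GC-adjusted fit called 32 lower and none higher. In 34 of the 45 all shYap-2 values lay under all shYap-1 values, against 13.7% of all genes. Over all genes 11.0% were called lower by the 5-library fit and 4.08% by the GC-adjusted fit. The median difference of the list was -0.36, against -0.00081 over all genes tested. The median deviation of the list from the mean of the 6 libraries was -0.181, -0.254 and -0.158 in the shYap-2 libraries and 0.187, 0.136 and 0.256 in the shYap-1 libraries, so shYap-1 replicate 2 lay on the side of its own group. Both hairpin groups lay above shCTRL: the median difference from shCTRL was 1.99 with shYap-2 and 2.44 with shYap-1, both against the same 3 shCTRL libraries. The summed level of the 11 leukocyte markers was 5.42 to 5.98 FPKM with shYap-2, 5.19 to 6.17 FPKM with shYap-1 and 8.37 to 8.93 FPKM with shCTRL. In bulk RNA a smaller share of responding cells and less RNA per cell cannot be told apart.

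Ifit1, an antiviral protein that binds viral RNA, was at 18.7, 18.3 and 20.3 FPKM with shYap-2, at 29.4, 25.5 and 32.0 FPKM with shYap-1 and at 0.57, 0.42 and 0.50 FPKM with shCTRL. The shYap-2 mean was 0.659 of the shYap-1 mean, a difference of -0.57 ± 0.09 (SE; limma adjusted p = 0.0623 with all 6 libraries and 0.00111 in the 5-library fit). Ifit3b was at 5.83, 5.62 and 6.37 FPKM with shYap-2 and at 10.2, 9.72 and 10.1 FPKM with shYap-1, a ratio of 0.595, and its near-identical neighbour Ifit3 at 7.87, 7.55 and 6.56 FPKM with shYap-2 and at 11.7, 11.7 and 12.6 FPKM with shYap-1. These neighbours share sequence, so the counting may have split reads between them. Usp18, which removes ISG15 from proteins and restrains interferon signalling, was at 23.6, 21.9 and 23.7 FPKM with shYap-2 and at 34.2, 36.4 and 37.4 FPKM with shYap-1, with 0.82, 0.38 and 0.93 FPKM in shCTRL cells. Isg15 itself was at 141, 129 and 145 FPKM with shYap-2, at 182, 215 and 196 FPKM with shYap-1 and at 10.3, 9.93 and 9.40 FPKM with shCTRL. The groups did not overlap in any of these genes.

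The oligoadenylate synthetases, which sense double-stranded RNA and activate RNase L, followed the same order. Oas1a was at 36.5, 33.5 and 35.4 FPKM with shYap-2 and at 48.7, 55.3 and 53.6 FPKM with shYap-1, and Oas3 at 17.1, 16.0 and 18.6 FPKM with shYap-2 and at 23.6, 26.0 and 26.2 FPKM with shYap-1. Oas1g, a close copy of Oas1a with which reads may be shared, was at 11.2, 11.1 and 10.6 FPKM with shYap-2 and at 15.3, 17.1 and 16.5 FPKM with shYap-1. Among the regulators, Irf7, the factor that amplifies interferon production, was at 44.6, 41.8 and 51.0 FPKM with shYap-2, at 58.8, 72.3 and 65.4 FPKM with shYap-1 and at 0.61, 0.80 and 1.05 FPKM with shCTRL. The groups did not overlap in Irf7. Irf9 and Stat2, subunits of the complex that binds interferon-stimulated response elements, had differences of -0.22 and -0.25, and both were called lower by the 5-library fit.

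Of the 16 tested interferon-inducible GTPases and interferon-gamma response genes, the 5-library fit called 9 lower and 2 higher (Irf8 and Socs3). Over all genes the shares were 11.0% and 10.4%. Irf8 and Socs3 overlapped between the hairpins over all 6 libraries. The GC-adjusted fit called 8 lower and none higher. Gbp7, a guanylate-binding protein, was at 10.3, 10.2 and 11.0 FPKM with shYap-2, at 16.6, 15.0 and 16.1 FPKM with shYap-1 and at 1.12, 1.04 and 1.32 FPKM with shCTRL. Irgm1, a GTPase of cell-autonomous defence, was at 30.4, 31.8 and 29.6 FPKM with shYap-2 and at 40.8, 37.1 and 43.0 FPKM with shYap-1. Irf1, an early interferon-gamma target, overlapped, at 35.3, 36.2 and 35.9 FPKM with shYap-2, 37.8, 41.6 and 35.7 FPKM with shYap-1 and 38.0, 37.7 and 36.7 FPKM with shCTRL. Outside the lists, Serpinb9b, a relative of the granzyme B inhibitor, had the largest lower difference among the genes named by size. It was at 10.3, 10.9 and 10.6 FPKM with shYap-2, at 19.1, 16.0 and 18.2 FPKM with shYap-1 and at 0.33, 0.33 and 0.43 FPKM with shCTRL (difference -0.69 ± 0.08, SE; limma adjusted p = 0.0583 with all 6 libraries and 0.00085 in the 5-library fit). The genes of the 12 not given with values were Ifi44, Pqlc2, a lysosomal exporter of cationic amino acids, and Lrrc51.

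**Figure D2:**
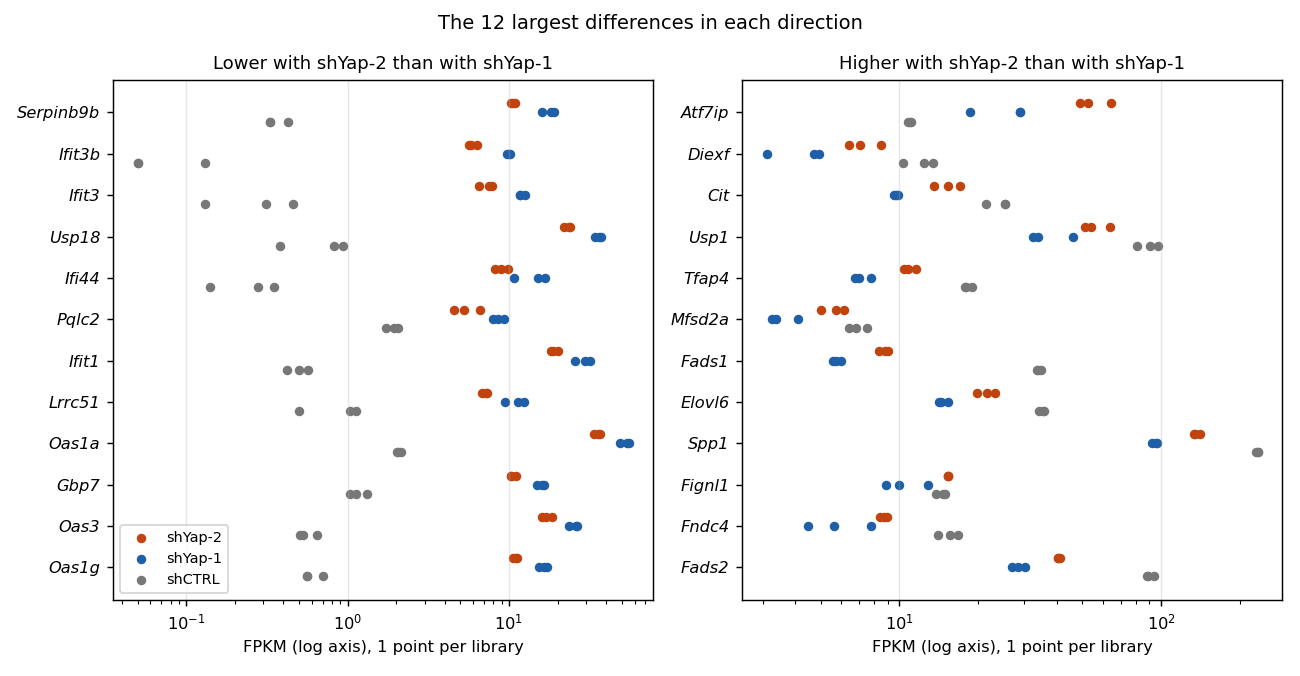
FPKM per library, on a log axis, for the 12 genes with the largest lower (left) and higher (right) differences between shYap-2 and shYap-1, with shCTRL beside them. Genes were called by the 5-library fit with no overlap over all 6 hairpin libraries. On the left shYap-2 lies between shYap-1 and shCTRL in every gene; on the right shCTRL lies above both hairpins in all but Atf7ip, where it is lowest, and Fignl1, where it lies between.

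The promoters of 3 of these genes are shown because each holds the interferon-stimulated response element searched for, GAAA, any 2 bases and GAAA again, or its reverse complement with TTTC in place of GAAA (capitals; overlapping matches are joined). They run from 250 bases before to 50 after the gene's start, on the strand of the gene, and come from RefSeq (GRCm38.p6), with Ifit1 at chr19:34640639-34640938 (plus strand), Oas1a at chr5:120907476-120907775 (minus strand) and Gbp7 at chr3:142530086-142530385 (plus strand).
Ifit1: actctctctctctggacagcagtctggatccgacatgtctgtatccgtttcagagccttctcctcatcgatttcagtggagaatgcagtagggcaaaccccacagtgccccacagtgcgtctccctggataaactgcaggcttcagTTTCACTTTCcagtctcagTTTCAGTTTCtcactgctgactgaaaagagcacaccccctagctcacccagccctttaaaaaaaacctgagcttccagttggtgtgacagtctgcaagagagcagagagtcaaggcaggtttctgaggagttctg
Oas1a: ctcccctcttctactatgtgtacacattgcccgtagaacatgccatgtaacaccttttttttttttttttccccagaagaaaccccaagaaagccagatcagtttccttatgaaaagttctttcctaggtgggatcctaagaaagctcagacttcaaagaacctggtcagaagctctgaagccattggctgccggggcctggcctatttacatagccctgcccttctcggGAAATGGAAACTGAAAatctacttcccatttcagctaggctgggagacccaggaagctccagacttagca
Gbp7: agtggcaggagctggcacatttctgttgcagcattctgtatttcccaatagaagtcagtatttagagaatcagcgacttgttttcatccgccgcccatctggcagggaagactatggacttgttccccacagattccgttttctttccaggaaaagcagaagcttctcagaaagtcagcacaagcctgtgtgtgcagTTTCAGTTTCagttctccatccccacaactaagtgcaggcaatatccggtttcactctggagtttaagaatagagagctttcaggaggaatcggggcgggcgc
The element was present in 72 of the 911 promoters of genes called lower by the 5-library fit (7.9%), in 2.66% of those called higher, in 3.68% of those of the genes tested and in 3.99% of all promoters in the table. Among the 34 promoters of the type I interferon list it was present in 15 (44.1%). A match is a run of letters and not a bound site.

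The MHC class I antigen presentation genes that were called were also all lower with shYap-2. All 17 tested members had a difference below 0. The 5-library fit called 12 lower and none higher, and the GC-adjusted fit 8 lower and none higher. The shares called lower over all genes were 11.0% and 4.08%. B2m, the light chain of MHC class I, was at 623, 601 and 647 FPKM with shYap-2, at 766, 682 and 765 FPKM with shYap-1 and at 295, 277 and 274 FPKM with shCTRL. The heavy chain H2-K1 was at 69.7, 69.5 and 71.9 FPKM with shYap-2 and at 76.9, 91.3 and 81.1 FPKM with shYap-1, and H2-D1 at 260, 257 and 258 FPKM with shYap-2 and at 286, 366 and 289 FPKM with shYap-1. None of the 3 overlapped. The peptide transporter subunit Tap1 was at 11.7, 10.8 and 13.1 FPKM with shYap-2 and at 16.0, 17.2 and 17.5 FPKM with shYap-1, the lowest difference of the list at -0.48. Its partner Tap2 overlapped, with a difference of -0.11. Psmb8, an immunoproteasome subunit, was at 65.5, 64.0 and 65.4 FPKM with shYap-2 and at 77.0, 100 and 82.6 FPKM with shYap-1. Against the same shCTRL libraries the list's median difference was 1.10 with shYap-2 and 1.32 with shYap-1.

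Lysosomal genes, which encode hydrolases and membrane proteins of the degradative compartment, were lower with shYap-2 in 32 of 34 members by sign. The 5-library fit called 18 lower and none higher, the GC-adjusted fit 12 and none, and 20 did not overlap with shYap-2 below. Over all genes the corresponding shares on the lower side were 11.0%, 4.08% and 13.7%. Ctsd, the protease cathepsin D, was at 325, 327 and 328 FPKM with shYap-2, at 390, 449 and 400 FPKM with shYap-1 and at 111, 115 and 116 FPKM with shCTRL. Lamp1, a lysosomal membrane protein, was at 462, 456 and 458 FPKM with shYap-2 and at 546, 533 and 543 FPKM with shYap-1. Grn, which encodes progranulin, had a difference of -0.34 with all 6 libraries (limma adjusted p = 0.0944). In the 5-library fit its difference was -0.26 (limma adjusted p = 0.00167).

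Among 25 mesenchymal and matrix genes the 5-library fit called 7 lower and 2 higher, against 11.0% and 10.4% over all genes. The GC-adjusted fit called 4 lower (Col4a2, Sparc, Timp2 and Acta2) and 1 higher (Mmp3), against 4.08% and 3.62%. The higher calls were thus near the shares over all genes. Sparc, a collagen-binding matrix protein, was at 65.9, 66.4 and 67.0 FPKM with shYap-2 and at 86.9, 101 and 87.3 FPKM with shYap-1, without overlap. Mmp3, the matrix protease stromelysin, went the other way, at 33.5, 32.5 and 34.2 FPKM with shYap-2, 27.6, 23.7 and 28.2 FPKM with shYap-1 and 15.9, 15.8 and 16.0 FPKM with shCTRL. Plau was the other gene called higher. Acta2, smooth muscle actin and also a fibroblast marker, was at 2.83, 2.38 and 2.29 FPKM with shYap-2 and at 3.27, 4.93 and 4.86 FPKM with shYap-1. The summed level of the 17 fibroblast and endothelium markers was 5.53 to 5.78 FPKM with shYap-2, 6.72 to 8.57 FPKM with shYap-1 and 4.68 to 4.88 FPKM with shCTRL, and its part in these differences was not tested.

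Within the TGF-beta and BMP list the 5-library fit called 6 of 24 lower and none higher. The GC-adjusted fit called 5 lower and none higher. Over all genes 11.0% were called lower by the 5-library fit and 4.08% by the GC-adjusted fit. The inhibitor-of-differentiation genes Id1, Id2 and Id3, direct targets of BMP signalling, were among those called lower. Id1 was at 46.6, 41.4 and 44.2 FPKM with shYap-2, at 55.4, 76.8 and 57.3 FPKM with shYap-1 and at 21.7, 20.4 and 23.1 FPKM with shCTRL. Id2 and Id3 had differences of -0.42 and -0.30 and, like Id1, no overlap and a call lower in both fits. Of 31 epithelial and keratin genes 10 were called lower and 4 higher (Epcam, Krt7, Krt18 and St14) by the 5-library fit, against a background of 11.0% and 10.4%. The GC-adjusted fit called 4 lower (Krt14, Krt19, Jup and Spint1) and none higher. Krt14, a basal keratin, was at 177, 191 and 189 FPKM with shYap-2, at 236, 274 and 245 FPKM with shYap-1 and at 67.6, 70.3 and 77.7 FPKM with shCTRL, while Epcam was at 179, 178 and 181 FPKM with shYap-2 and 161, 160 and 166 FPKM with shYap-1. Of 35 genes of the NRF2, glutathione and thioredoxin list, the 5-library fit called 6 lower and 3 higher (Keap1, Gsr and Tkt). Over all genes the shares were 11.0% lower and 10.4% higher, so the higher calls were a smaller share. The GC-adjusted fit called 3 lower (Hmox1, Mgst1 and Cat) and Tkt alone higher. Mgst1, a microsomal glutathione transferase, was at 25.1, 23.8 and 25.1 FPKM with shYap-2, at 33.9, 35.6 and 32.2 FPKM with shYap-1 and at 4.28, 4.29 and 4.67 FPKM with shCTRL.

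The genes of S phase and of mitosis that were called were all higher with shYap-2 than with shYap-1. All 41 tested genes of S phase and DNA replication had a difference above 0. The 5-library fit called 29 higher and none lower, the GC-adjusted fit 21 and none, and 29 had values without overlap. Over all genes 10.4% were called higher by the 5-library fit and 3.62% by the GC-adjusted fit. In 12.3% of all genes the shYap-2 values lay above all shYap-1 values. The median deviation of the list was 0.128, 0.135 and 0.135 in the shYap-2 libraries and -0.153, -0.151 and -0.124 in the shYap-1 libraries. Mcm3, a subunit of the replicative helicase, was at 90.0, 89.5 and 87.5 FPKM with shYap-2, at 69.3, 72.0 and 69.1 FPKM with shYap-1 and at 111, 116 and 114 FPKM with shCTRL. Its difference was 0.34 ± 0.05 (SE; limma adjusted p = 0.0583 with all 6 libraries and 0.000912 in the 5-library fit). Tk1, thymidine kinase, was at 77.9, 81.4 and 76.0 FPKM with shYap-2, at 55.0, 65.6 and 55.8 FPKM with shYap-1 and at 107, 114 and 116 FPKM with shCTRL. Cdt1, which licenses replication origins, was at 55.4, 56.2 and 56.2 FPKM with shYap-2 and at 40.7, 53.6 and 42.4 FPKM with shYap-1; the value closest to shYap-2 came from shYap-1 replicate 2. In Mcm5 too that replicate, at 124 FPKM, lay nearest to shYap-2, which was at 132, 130 and 130 FPKM, while shYap-1 replicates 1 and 3 were both at 100.3 FPKM.

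The promoters of Mcm5 and Mcm3 are shown because they hold the E2F motif, searched as TTTCCCGC and TTTGGCGC and their reverse complements GCGGGAAA and GCGCCAAA (capitals); this motif was chosen after the values were seen. They cover the same window on the strand of the gene, from RefSeq (GRCm38.p6), with Mcm5 at chr8:75109259-75109558 (plus strand) and Mcm3 at chr1:20820263-20820562 (minus strand).
Mcm5: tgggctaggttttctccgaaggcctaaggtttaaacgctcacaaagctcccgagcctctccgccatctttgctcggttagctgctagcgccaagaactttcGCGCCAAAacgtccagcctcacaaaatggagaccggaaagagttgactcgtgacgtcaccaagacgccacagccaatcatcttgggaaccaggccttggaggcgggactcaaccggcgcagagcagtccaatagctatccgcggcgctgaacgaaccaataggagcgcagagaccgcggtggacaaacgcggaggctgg
Mcm3: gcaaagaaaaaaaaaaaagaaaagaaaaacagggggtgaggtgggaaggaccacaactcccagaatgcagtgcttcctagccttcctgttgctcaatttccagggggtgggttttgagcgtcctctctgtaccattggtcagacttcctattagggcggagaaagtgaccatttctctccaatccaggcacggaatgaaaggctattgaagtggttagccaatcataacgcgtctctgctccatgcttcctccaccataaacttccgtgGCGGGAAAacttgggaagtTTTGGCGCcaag
The motif was present in 5.66% of the promoters of genes called higher by the 5-library fit, in 2.85% of those called lower, in 3.85% of those of the genes tested and in 1.8% of all promoters in the table. Among the 33 promoters of the S phase list it was present in 10 (30.3%).

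Every one of the 39 tested G2/M and mitosis genes had a difference above 0, with a median of 0.33 with all 6 libraries. The 5-library fit called 31 higher and none lower, and the GC-adjusted fit 28 and none. In 36 of the 39 the shYap-2 values lay above all shYap-1 values. Over all genes the corresponding shares on the higher side were 10.4%, 3.62% and 12.3%. Cdk1, the mitotic kinase, was at 128, 128 and 121 FPKM with shYap-2, at 101, 83.9 and 101 FPKM with shYap-1 and at 161, 165 and 159 FPKM with shCTRL. Its cyclin Ccnb1 was at 54.5, 56.9 and 56.9 FPKM with shYap-2 and at 43.8, 42.3 and 44.3 FPKM with shYap-1. Cdc20, an activator of the anaphase-promoting complex, was at 92.3, 93.8 and 94.3 FPKM with shYap-2, at 67.7, 85.6 and 69.9 FPKM with shYap-1 and at 128, 131 and 143 FPKM with shCTRL. The size of these differences depended on shYap-1 replicate 2. The median deviation of the list was 0.169, 0.166 and 0.148 in the shYap-2 libraries and -0.0811, -0.356 and -0.104 in the shYap-1 libraries, and without that replicate the median difference was 0.24. Mki67, the proliferation marker, was at 27.5 FPKM there and at 40.7 and 37.0 FPKM in shYap-1 replicates 1 and 3, against 46.1, 44.9 and 44.2 FPKM with shYap-2. Its difference was 0.37 with all 6 libraries and 0.21 without that replicate.

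Among 26 genes of the E2F, RB and G1/S list, the 5-library fit called 9 higher and 3 lower. Over all genes the shares were 10.4% and 11.0%. The 3 called lower were Rb1, Cdkn1b and Cdkn2c, and their values overlapped between the hairpins over all 6 libraries. The GC-adjusted fit called 4 higher (E2f7, E2f8, Tfdp1 and Ccnd1) and none lower. E2f8, a repressor of the E2F family, was at 17.0, 16.1 and 17.0 FPKM with shYap-2, at 12.4, 10.1 and 12.3 FPKM with shYap-1 and at 18.1, 17.8 and 18.3 FPKM with shCTRL. Ccnd1, cyclin D1, was at 290, 286 and 283 FPKM with shYap-2, at 231, 257 and 231 FPKM with shYap-1 and at 468, 481 and 499 FPKM with shCTRL. Among the 12 genes with the largest higher difference, Cit, the citron kinase of cytokinesis, was at 13.6, 15.3 and 17.1 FPKM with shYap-2, at 9.72, 9.56 and 9.89 FPKM with shYap-1 and at 25.3, 25.3 and 21.5 FPKM with shCTRL, and Usp1, a deubiquitinase of DNA repair, was at 63.6, 51.3 and 53.8 FPKM with shYap-2 and at 32.5, 34.0 and 45.8 FPKM with shYap-1.

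**Figure D3:**
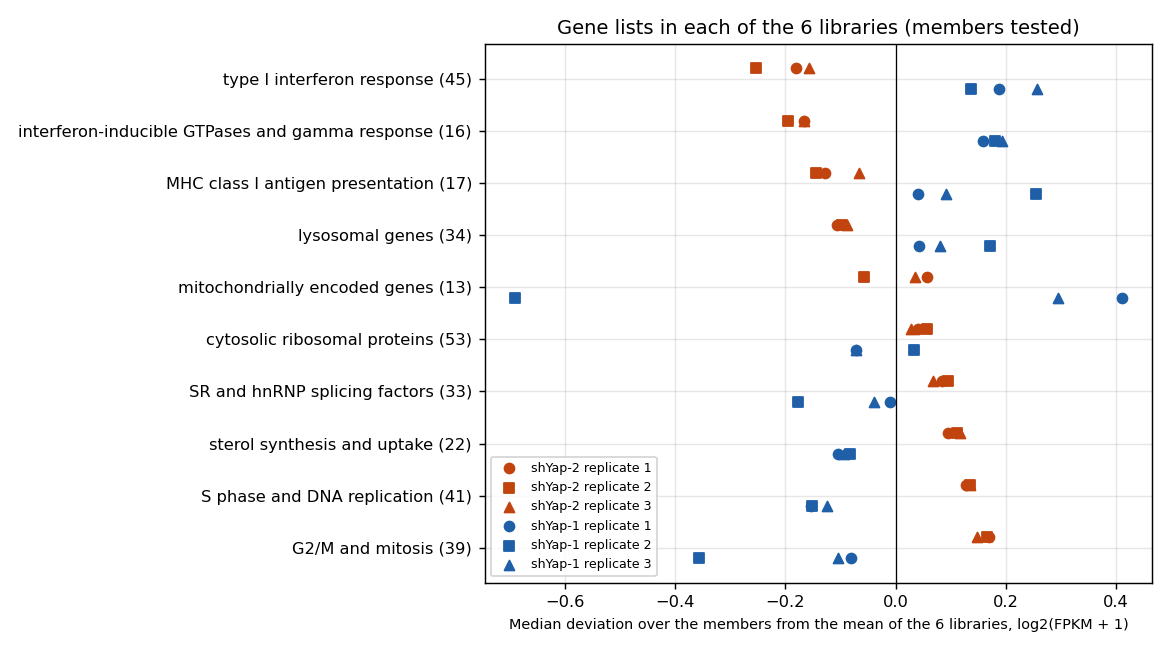
Median deviation of the members of 10 gene lists from the mean of the 6 hairpin libraries, in log2(FPKM + 1), with 1 point per library (shape gives the replicate). The shYap-2 and shYap-1 points do not overlap in the interferon, MHC class I, lysosomal, splicing, sterol, S phase and G2/M lists; in the ribosomal and mitochondrially encoded lists they do, and shYap-1 replicate 2 lies on the other side of shYap-2 from shYap-1 replicates 1 and 3 in the mitochondrially encoded genes.

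The largest higher difference among the genes named by size was that of Atf7ip (chr6:136506167-136610862, plus strand), a cofactor of the histone methyltransferase SETDB1 in heterochromatin. It was at 52.5, 48.8 and 64.0 FPKM with shYap-2, at 28.9, 18.5 and 28.9 FPKM with shYap-1 and at 11.0, 10.8 and 11.0 FPKM with shCTRL, so the shYap-2 mean was 2.16 times the shYap-1 mean. The difference was 1.10 ± 0.18 (SE; limma adjusted p = 0.0646 with all 6 libraries, 0.00172 in the 5-library fit and 0.0149 in the GC-adjusted fit). Without shYap-1 replicate 2 the difference was 0.90. With all 6 libraries Atf7ip is 1 of 4 genes with a difference of at least 1. Of the other 3, Pagr1a and Gm10131 overlapped between the hairpins and were called by neither fit; Gm10131 was at 0, 3.49 and 13.6 FPKM with shYap-2 and at 7.61, 25.7 and 8.35 FPKM with shYap-1. Tmem254c, below the level of 5 FPKM required for naming, was at 4.23, 4.04 and 4.61 FPKM with shYap-2 and at 0, 3.53 and 1.12 FPKM with shYap-1 and was called higher by the 5-library fit only.

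Fads1, Fads2 and Elovl6, enzymes of fatty acid synthesis outside the lists, were among the same 12 genes. Fads1, the delta-5 desaturase, was at 9.01, 8.38 and 8.78 FPKM with shYap-2, at 5.73, 5.99 and 5.59 FPKM with shYap-1 and at 33.9, 33.6 and 34.6 FPKM with shCTRL. Fads2, the delta-6 desaturase beside it on chromosome 19, was at 40.4, 41.0 and 40.4 FPKM with shYap-2, at 28.3, 30.2 and 27.0 FPKM with shYap-1 and at 88.6, 89.4 and 94.2 FPKM with shCTRL. Elovl6, a fatty acid elongase, was at 23.1, 19.9 and 21.6 FPKM with shYap-2 and at 15.3, 14.2 and 14.5 FPKM with shYap-1. Both hairpin groups lay under shCTRL in these genes, and shYap-2 lay nearer to it. In the list of sterol synthesis and uptake the 5-library fit called 13 of 22 higher and 1 lower (Hsd17b7). The GC-adjusted fit called 8 higher and none lower. The shares called higher over all genes were 10.4% and 3.62%. Fdps, farnesyl diphosphate synthase, was at 139, 135 and 143 FPKM with shYap-2, at 103, 108 and 108 FPKM with shYap-1 and at 253, 263 and 269 FPKM with shCTRL. Spp1, the secreted phosphoprotein osteopontin, was at 133, 135 and 140 FPKM with shYap-2, at 92.3, 95.4 and 96.5 FPKM with shYap-1 and at 231, 234 and 234 FPKM with shCTRL.

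Of 33 splicing factors of the SR and hnRNP families, the 5-library fit called 17 higher and 2 lower (the kinases Clk1 and Clk4). The GC-adjusted fit called 6 higher and none lower. Over all genes the 5-library fit called 10.4% higher and 11.0% lower, and the GC-adjusted fit 3.62% and 4.08%. Hnrnpa1, which has near-identical processed copies in the genome that can share its reads, was at 364, 363 and 353 FPKM with shYap-2, at 276, 259 and 278 FPKM with shYap-1 and at 769, 782 and 773 FPKM with shCTRL. Cytosolic ribosomal protein genes gave counts that turned on the fit: 39 of 53 were called higher and 1 lower (Rps27) without shYap-1 replicate 2, but 3 higher and none lower after GC adjustment (Rpl3, Rpl12 and Rps14). Rpl3 was at 799, 820 and 797 FPKM with shYap-2 and at 699, 755 and 726 FPKM with shYap-1. The mitochondrially encoded genes showed the same dependence more strongly. Without shYap-1 replicate 2, 12 of 13 were called lower with shYap-2, with a median of -0.295; with all 6 libraries the median was 0.013, all 13 overlapped, and the GC-adjusted fit called none. mt-Co1, a subunit of cytochrome c oxidase, was at 3275, 3010 and 3228 FPKM with shYap-2 and at 3913, 2090 and 3788 FPKM with shYap-1.

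Within the integrated stress response list the 5-library fit called 8 of 24 higher and 1 lower, against 10.4% and 11.0% over all genes. In 3 of the 24 the shYap-2 values lay above all shYap-1 values, a share near the 12.3% over all genes. These 3 were all called higher, and the other members called higher overlapped. Psat1, of serine synthesis, was at 88.4, 88.0 and 86.5 FPKM with shYap-2, at 67.2, 59.3 and 69.5 FPKM with shYap-1 and at 289, 293 and 279 FPKM with shCTRL. Mthfd2, of mitochondrial folate metabolism, was at 34.3, 36.4 and 33.2 FPKM with shYap-2 and at 27.4, 28.4 and 26.4 FPKM with shYap-1, and the third was Shmt2. Ppp1r15a, a phosphatase subunit that ends the response, was the member called lower. The GC-adjusted fit called 4 higher (Psat1, Shmt2, Mthfd2 and Slc7a5) and none lower. Vars, the valyl-tRNA synthetase, was the 1 of 20 synthetases called higher, with Rars called lower, and the GC-adjusted fit kept Vars alone. In the 5-library fit both were smaller shares than the 10.4% and 11.0% over all genes. In the list of the small RNA machinery through which hairpins act, the 5-library fit called 4 of 18 higher and none lower. All of these were genes with general functions (Hspa8, Hsp90aa1, Hsp90ab1 and Ran), and the GC-adjusted fit kept Hsp90aa1 and Ran. The shares called higher over all genes were 10.4% and 3.62%. Dicer and Argonaute genes were not among the calls, although the values of Ago2 and of the exporter Xpo5 did not overlap between the hairpins.

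The other lists held calls in both directions, except the ER chaperones, and are read against shares of 10.4% higher and 11.0% lower over all genes in the 5-library fit and 3.62% and 4.08% in the GC-adjusted fit. The shares of NF-kB targets, nuclear respiratory chain and clock genes called were near or below these. Of 24 immediate early genes the 5-library fit called 6 higher and 5 lower, with Egr1 at 3.69, 3.91 and 4.01 FPKM with shYap-2, 2.79, 2.78 and 2.79 FPKM with shYap-1 and 8.66, 8.96 and 8.46 FPKM with shCTRL, and with Klf2 lower, at 3.89, 4.08 and 4.31 FPKM with shYap-2 and 5.07, 6.04 and 5.48 FPKM with shYap-1. The others called lower were Jun, Atf3, Klf6 and Dusp4. The GC-adjusted fit called 3 higher (Fosl1, Egr1 and Dusp6) and 3 lower (Jun, Jund and Klf2). Of 21 NF-kB targets and cytokines the 5-library fit called Cxcl1, Csf2 and Il1a higher and Rela lower. The GC-adjusted fit kept Il1a alone. Cxcl1, a neutrophil chemoattractant, was at 15.2, 13.4 and 14.7 FPKM with shYap-2 and at 10.5, 12.5 and 11.5 FPKM with shYap-1, both far below the 90.8, 103 and 84.6 FPKM of shCTRL. Of 18 histone genes the 5-library fit called 6 higher and 4 lower (Hist1h1c, Hist1h2bc, Hist1h3b and H3f3a). Histone genes share sequence, so reads may be split between copies. The GC-adjusted fit called 2 of the 18 higher (H1f0 and H2afx) and 1 lower (Hist1h3b). Hist1h1c was at 28.7, 26.8 and 28.4 FPKM with shYap-2, at 40.1, 32.9 and 38.2 FPKM with shYap-1 and at 4.67, 4.01 and 5.64 FPKM with shCTRL. Of 28 p53 targets the 5-library fit called 2 higher, Aen among them, and 5 lower (Fas, Tnfrsf10b, Gadd45a, Perp and Casp8). The GC-adjusted fit called 1 higher and 2 lower (Fas and Perp). Of 29 glycolysis and hypoxia genes the 5-library fit called 8 higher and 3 lower (Ndrg1, Kdm3a and P4ha1). The GC-adjusted fit called 2 higher (Ldha and Egln3) and 2 lower (Ndrg1 and P4ha1). Of 40 nuclear respiratory chain genes the 5-library fit called 4 higher (Ndufa10, Cox8a, Cyc1 and Atp5b) and 2 lower (Ndufa1 and Ndufa5). Of these the GC-adjusted fit kept Ndufa1 alone. Of 17 clock genes the 5-library fit called 1 higher (Ciart) and 2 lower (Per1 and Nfil3), none of which the GC-adjusted fit called. Of 22 ER chaperones the 5-library fit called none higher and 6 lower, none of which the GC-adjusted fit called.

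**Figure D4:**
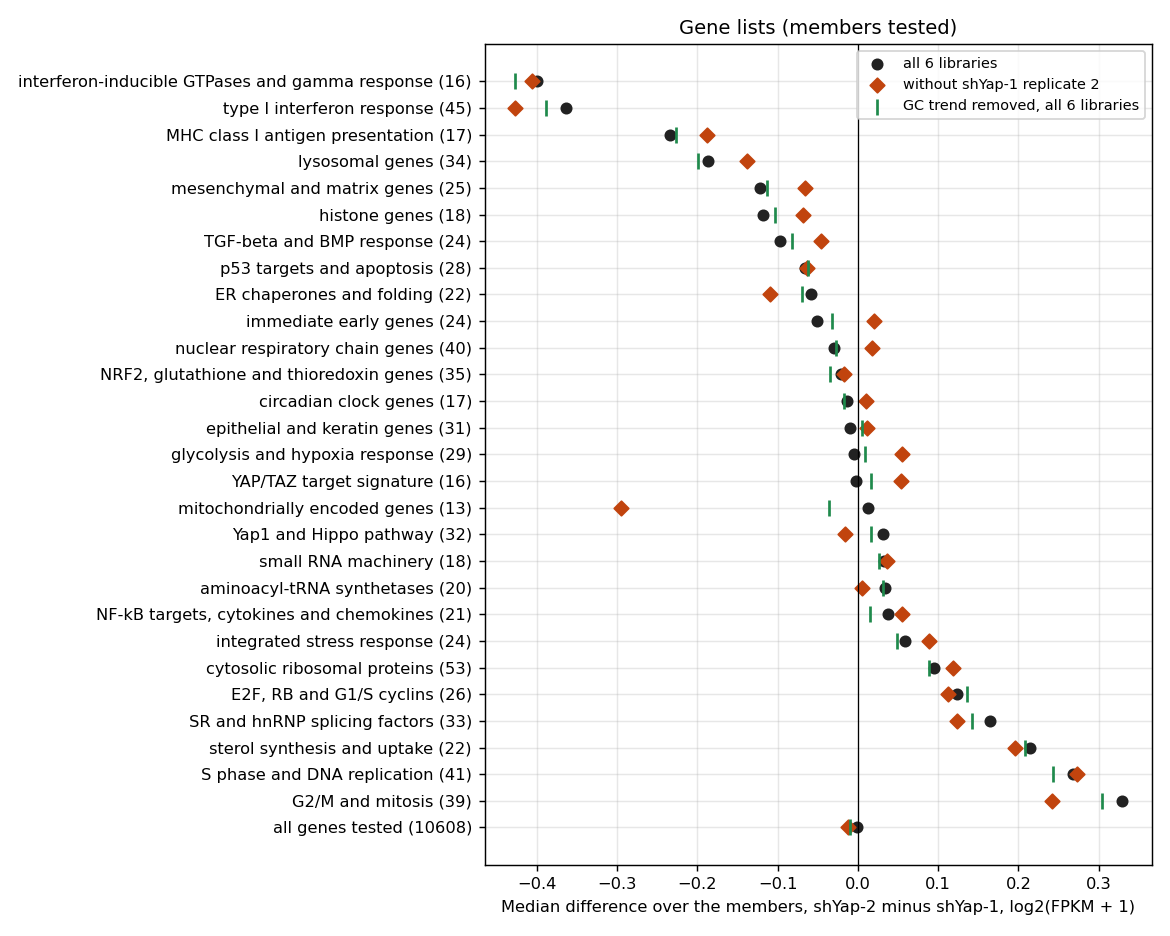
Median difference, shYap-2 minus shYap-1 in log2(FPKM + 1), over the tested members of each of 28 gene lists (number in brackets), with all 6 libraries, without shYap-1 replicate 2 and with the GC trend removed. The interferon lists lie lowest and the S phase and G2/M lists highest in all 3; the mitochondrially encoded genes lie at 0.013 with all 6 libraries and at -0.295 without shYap-1 replicate 2.

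The position of shCTRL was described for the 1196 genes that the 5-library fit called, whose 3 hairpin values did not overlap and whose mean reached 5 FPKM in the higher hairpin group. These counts share the hairpin libraries with the calls and carry no test. Of the 577 genes higher with shYap-2, shCTRL lay above both hairpins in 464, so that shYap-2 lay between, and below both in 28. Of the 619 genes lower with shYap-2, shCTRL lay below both in 561 and above both in 14. In 61 genes shCTRL overlapped shYap-2 and not shYap-1, in 38 the reverse, and in 11 it lay between the hairpins without overlap.

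Sapcd2, a regulator of spindle orientation, is an example in which shYap-2 overlapped shCTRL: it was at 12.2, 12.5 and 12.2 FPKM with shYap-2, at 7.51, 10.6 and 7.77 FPKM with shYap-1 and at 12.1, 12.6 and 13.6 FPKM with shCTRL. Skp2, the F-box protein that targets p27 for degradation, was at 17.3, 15.6 and 16.4 FPKM with shYap-2, at 12.5, 11.5 and 12.4 FPKM with shYap-1 and at 16.6, 17.4 and 16.0 FPKM with shCTRL. Slc16a13, Mis12, Chaf1a and Atp5s had the same arrangement by overlap. Their means still differed: shYap-2 minus shCTRL in log2(FPKM + 1) was -0.37 in Mis12, -0.31 in Chaf1a, 0.30 in Atp5s and 0.08 in Slc16a13. In Rusc2 the reverse held: it was at 7.19, 6.90 and 7.06 FPKM with shYap-2, at 9.77, 11.1 and 10.7 FPKM with shYap-1 and at 10.5, 11.1 and 9.78 FPKM with shCTRL. Slc4a11, a membrane transporter of the bicarbonate family, was at 32.1, 30.7 and 34.9 FPKM with shYap-2, at 21.7, 27.0 and 23.0 FPKM with shYap-1 and at 21.1, 23.7 and 23.0 FPKM with shCTRL. Pms2, a mismatch repair protein, Bloc1s5, Zbtb21 and Pclaf belonged to the same class, though shYap-1 minus shCTRL was 0.25 in Bloc1s5 and 0.17 in Zbtb21. The genes of both classes are those whose level with one hairpin could not be told from shCTRL by overlap while the other hairpin stood apart.

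**Figure D5:**
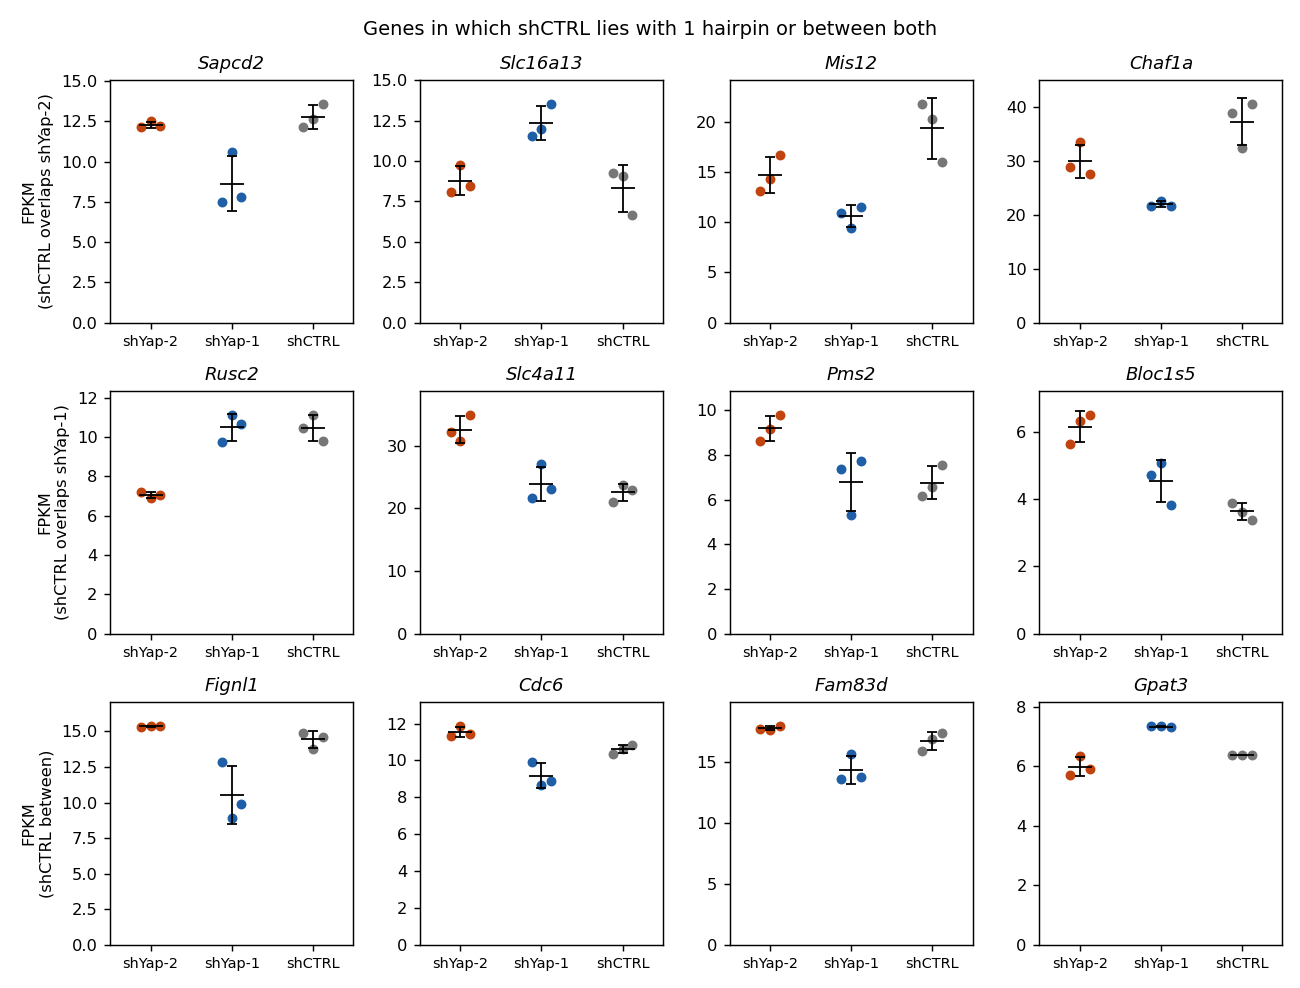
FPKM per library (points) with mean and SD (bars, n = 3) for 12 genes, with shYap-2 left, shYap-1 in the middle and shCTRL right. In the top row shCTRL overlaps shYap-2 and not shYap-1, in the middle row it overlaps shYap-1 and not shYap-2, and in the bottom row it lies between the hairpins without overlap.

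The median difference per chromosome lay between -0.0123 on chromosome 7 and 0.0253 on the X chromosome among the nuclear chromosomes with all 6 libraries, and between -0.0443 on chromosome 13 and 0.00742 on chromosome 7 without shYap-1 replicate 2. On chromosome 1 the 5-library fit called 17.4% of 605 genes lower and 6.94% higher; on every other nuclear chromosome the share called lower was smaller. The calls of the 5-library fit varied with GC content: 2.92% of the genes in the decile of lowest GC content and 18.2% of those in the highest were called higher, and 18.5% and 4.43% were called lower. After GC adjustment 1.51% of the lowest decile and 3.68% of the highest were called higher, and 2.07% and 5.28% lower.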

How the data were processed

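Polyadenylated RNA of 4T1 cells was made into NEBNext Ultra libraries and sequenced on an Illumina instrument, per the labels' protocols. The authors deposited FPKM per gene, with 2 decimals, in a table for each hairpin; the 3 shCTRL libraries stand in both (0 of their values differed). Tools in the submitters' processing notes are HISAT2 2.1.0, StringTie 1.3.4, fastp 0.18.0 and RSEM, with the build mm10; the step each served, the annotation and the use of strand are not given in the sources used here, so antisense and overlapping genes cannot be told apart.

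The tables were joined on Ensembl ID. GENCODE vM21 (GRCm38) annotated 10606 of the 10608 genes tested. shYap-2 was compared with shYap-1 by limma 3.58.1 (R 4.3.3; linear fit and eBayes with trend) on log2(FPKM + 1), without scaling, over 6 libraries, with Benjamini-Hochberg adjustment over all genes tested and a threshold of 0.05. A fold on this scale understates the change of low genes. The smallest exact p for 3 against 3 is 0.1, so smaller p-values rest on the model. Depth was estimated as the number of fragments at which FPKM times length gives whole numbers in genes of low level. The GC adjustment removed a lowess trend (span 0.3) on GC content of the longest transcript from each library. The fits without GC adjustment and the depth estimate were tested on simulated data. The GC adjustment was not, and the simulated noise of shYap-1 replicate 2 did not follow GC content. The simulated differences, 0.5 and 1 in log2(FPKM + 1), were larger than most differences in the data, whose median size was 0.0967.

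Alternative settings were no filter, a filter at 5 FPKM, a pseudocount of 0.1, trimmed-mean and median-of-ratios scaling, no trend, array quality weights, a replicate block, all 9 libraries in 1 fit, GC adjustment, a size threshold of 0.5 and each library left out; GC adjustment without shYap-1 replicate 2 and the alternatives within the 5-library fit were added after seeing the data. FPKM values do not allow count models, so none was fitted.

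The genes compared, the 28 gene lists and the 3 marker lists were chosen with earlier results of these data known. The naming rule took Yap1 and Wwtr1, then among called genes the 12 largest differences in each direction with at least 5 FPKM in the higher group and no overlap, up to 4 members of each list, up to 2 members against their list's direction and up to 6 genes for each position of shCTRL. With all 6 libraries it named only Yap1 and Wwtr1, since nothing was called, so the calls of the 5-library fit without overlap were used instead, a choice made after the values were seen. A further 19 genes with values (such as Isg15, Irf7, Tap1, Ccn2, Cdk1, Mki67 and mt-Co1) were picked after seeing the data, most for their known roles. Some of the genes so chosen are not reported here. Lists are described by counts and medians, with no test. Tables used Python 3.11.15, numpy 2.4.6, pandas 2.3.3 and scipy 1.17.1, and figures matplotlib 3.10.9.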

Additional observations from a re-analysis of the deposited data

Results flagged for a closer look

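The 5-library fit called 1196 genes without overlap and with at least 5 FPKM in the higher hairpin group. In 11 of them all shYap-2 values lay on one side of all shCTRL values and all shYap-1 values on the other. The difference between hairpins, shYap-2 minus shYap-1 in log2(FPKM + 1), did not pass the threshold with all 6 libraries. This is an order of values, and whether the hairpins had opposite effects was not tested. The 6 with the largest difference follow. Fignl1, an ATPase of DNA repair, had a difference of 0.51: it was at 15.3, 15.4 and 15.4 FPKM with shYap-2, at 12.8, 8.91 and 9.93 FPKM with shYap-1 and at 14.9, 13.8 and 14.6 FPKM with shCTRL. Cdc6, which loads the replicative helicase, had a difference of 0.31, at 11.3, 11.9 and 11.4 FPKM with shYap-2, 9.93, 8.69 and 8.86 FPKM with shYap-1 and 10.4, 10.6 and 10.9 FPKM with shCTRL. The differences were 0.29 in Fam83d, a mitotic spindle protein, and 0.22 in Fanca, a Fanconi anaemia protein. Gpat3, an acyltransferase of triglyceride synthesis, had a difference of -0.26, at 5.71, 6.34 and 5.92 FPKM with shYap-2, 7.35, 7.35 and 7.31 FPKM with shYap-1 and 6.39, 6.38 and 6.37 FPKM with shCTRL. The difference in Cited2, a transcriptional co-regulator, was -0.23.

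Of the 604 genes in the shYap-1 table only, 1 reached 1 FPKM in 3 libraries and could not be compared between hairpins. Hist1h2be, a replication-dependent histone, averaged 2.23 ± 0.17 FPKM with shYap-1 (SD, n = 3) and was at 0.08, 0.06 and 1.76 FPKM with shCTRL. Of the 432 genes in the shYap-2 table only, none exceeded 0.40 FPKM.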

How the results depend on the processing

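The counts of calls depended on shYap-1 replicate 2 and on GC content. Against 0 higher and 0 lower with all 6 libraries, the counts were 1101 and 1170 without shYap-1 replicate 2, 384 and 433 with the GC trend removed, 963 and 1147 with both together, 25 and 16 among genes of at least 5 FPKM, 207 and 147 with all 9 libraries in 1 fit, and 1772 and 1955 with array quality weights, which gave shYap-1 replicate 2 a weight of 0.0795 and stopped before their tolerance was reached. A pseudocount of 0.1, no filter, both scalings, no trend and the other 5 libraries left out in turn each called 0. Leaving out 1 library thus gave 0 to 1101 higher and 0 to 1170 lower. The replicate numbers share no stated origin and the deviations of same-numbered libraries correlated at 0.11, 0.074 and -0.037, so they do not pair the samples; the fit with a replicate block called 0 and 0, and within the 5-library fit 813 and 854.

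Within the 5-library fit, leaving out a further library gave 445 to 825 higher and 416 to 863 lower, with 445 and 416 without shYap-1 replicate 1 and 598 and 561 without shYap-1 replicate 3. Without trend the counts were 699 and 759, with no filter 742 and 775, with shCTRL in the fit (8 libraries) 891 and 762, and with a size threshold of 0.5, 29 and 56. Trimmed-mean scaling gave 1225 and 1031, and the cause of the moves was not tested.

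Yap1 passed the threshold with array quality weights (0.183, limma adjusted p = 0.0345) and without shYap-1 replicate 2 after GC adjustment (0.268, limma adjusted p = 0.0497). The Wwtr1 difference changed sign to 0.0215 under that last setting. That of mt-Co1, 0.013 with all 6 libraries, was -0.036 with the GC trend removed, -0.252 with array quality weights, -0.203 with GC adjustment and without shYap-1 replicate 2, and -0.281 to 0.172 with 1 library left out (-0.281 without shYap-1 replicate 2, -0.0108 without shYap-2 replicate 1 and -0.000452 without shYap-2 replicate 3). The other 151 of the 153 named genes besides Yap1 kept their direction under every setting run. Most had been named because the fit without shYap-1 replicate 2 called them and their values did not overlap between the hairpins. Without overlap, leaving out a library cannot change the direction, so this count is no independent check. Of the 153, 144 were called without shYap-1 replicate 2, which restates how most were chosen. With the GC trend removed 107 were called, and with all 9 libraries 68. Of 28 list medians, 8 had another sign without shYap-1 replicate 2: those of the Hippo, YAP/TAZ, glycolysis, nuclear and mitochondrial respiratory chain, epithelial, immediate early and clock genes.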
